A study of Mus musculus with 9 samples.

Results

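The serpins (serine protease inhibitors) were followed here as a gene family in mouse lung. Of the 21983 gene symbols in the count table, 61 began with Serpin when Serping1 was set aside. Members were the 28 of them with 10 or more counts in at least 3 of the 9 libraries, and they were grouped by clade letter, the letter after Serpin: 11 in clade A, 11 in clade B, 2 in clade E and 1 each in clades D, F, H and I. The single clade C row, Serpinc1 (antithrombin), was not a member.

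Bulk RNA-seq libraries came from the lungs of BALB/c mice in 3 groups of 3. Control mice had no asthma and asthma mice carried the chronic asthma model, and both groups received saline by mouth from day 14. BSYQF mice had the same model and received Bu-Shen-Yi-Qi formula, a herbal preparation, by mouth from day 14 at 20 g of raw herbs per kg of body weight, for 6 weeks. The sources used here do not state the allergen, sex or age. Nor do the labels say that the 3 libraries of a group came from 3 different mice, so a p-value reflects variation among libraries that could be partly technical.

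Most serpins hold an exposed reactive-centre loop that a protease cuts as if it were a substrate. The serpin then folds the cut loop into its own body and traps the protease. Clade A serpins are mostly secreted and include antitrypsin, known in lung for protecting tissue from neutrophil elastase, and clade B serpins mostly stay in the cytosol. Some members, such as the collagen chaperone Serpinh1, inhibit no protease.

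All 11 clade A members lay within 800 kb of chromosome 12 (103614786 to 104414329, mm10), and the 7 Serpina3 members, mouse relatives of the human antichymotrypsin gene, lay within the last 268 kb (104146382 to 104414329). Of the clade B members 7 were on chromosome 13 and the other 4 on chromosome 1. The annotated gene models of Serpina3k and Serpina3m overlapped, and the strand setting of the counting is not given in the sources used here, so their counts are uncertain. Near-identical copies add to this: 57.6% of the 50-base words in Serpina1a transcripts and 29.5% of those in Serpina1b transcripts also occurred in transcripts of another gene. For the Serpina3 members that share ran from 4.25% in Serpina3c and 6.90% in Serpina3n to 19.1% in Serpina3m. It was 0 for Serpinh1, Serpinf1 and Serpinb11.

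RefSeq promoter windows (250 bases before to 50 after the start site, GRCm38.p6) were found for 22 of the 28 members. The 250 bases before the start are shown for 4 neighbours in the Serpina3 cluster: 3 that were higher in asthma and Serpina3f, which did not pass the test. Capitals mark matches to the motifs searched on both strands, which were a κB-type motif (GGG and TTTCC with any 2 bases between), a short and a long STAT-type motif (TTC and GAA with any 3 or any 4 bases between) and TATAAA.
Serpina3n (chr12:104406458-104406707, plus strand): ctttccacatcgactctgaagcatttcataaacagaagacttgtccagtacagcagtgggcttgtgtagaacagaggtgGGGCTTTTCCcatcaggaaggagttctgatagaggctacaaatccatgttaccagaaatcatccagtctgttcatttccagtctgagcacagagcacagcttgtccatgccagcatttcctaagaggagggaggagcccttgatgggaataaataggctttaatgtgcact
Serpina3g (chr12:104235897-104236146, plus strand): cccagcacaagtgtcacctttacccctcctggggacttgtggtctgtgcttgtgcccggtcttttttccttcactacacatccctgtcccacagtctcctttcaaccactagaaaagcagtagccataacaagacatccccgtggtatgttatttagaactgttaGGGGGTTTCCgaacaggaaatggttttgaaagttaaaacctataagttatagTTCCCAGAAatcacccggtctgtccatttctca
Serpina3i (chr12:104262872-104263121, plus strand): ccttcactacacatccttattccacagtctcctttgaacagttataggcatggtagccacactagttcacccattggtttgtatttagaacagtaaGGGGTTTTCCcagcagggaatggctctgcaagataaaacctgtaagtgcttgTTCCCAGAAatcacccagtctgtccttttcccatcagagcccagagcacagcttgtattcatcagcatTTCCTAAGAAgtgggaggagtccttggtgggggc
Serpina3f (chr12:104214294-104214543, plus strand): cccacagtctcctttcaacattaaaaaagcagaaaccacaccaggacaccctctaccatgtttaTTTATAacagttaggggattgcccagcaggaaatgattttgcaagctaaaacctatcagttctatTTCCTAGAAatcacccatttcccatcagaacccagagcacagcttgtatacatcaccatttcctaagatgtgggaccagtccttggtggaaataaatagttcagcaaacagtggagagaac

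The κB-type motif was found in the windows of Serpina3n, Serpina3g and Serpina3i, starting 171, 85 and 154 bases before the start site. The whole Serpina3g window lay before the start of that gene in the annotation used for positions (104236245), so its distance depends on the RefSeq start site. Among the 22 members with a window these were the 3 with it, while 1.63% of all 32851 promoter windows held it. Serpina3m and Serpina10, which were also called higher in asthma, had no window and were not searched. The short STAT-type motif occurred in Serpina3g, Serpina3i, Serpina3f and 1 of the Serpinb6a windows, against 8.30% of all windows. Serpina3n did not hold it. The long one, which 6.95% of all windows held, occurred in Serpina3i, Serpinb1b and Serpinb6a. A TATAAA match, present in 13.6% of all windows, was found for Serpina3c, Serpina3f, Serpinb12 and Serpinb1c. These windows are related copies rather than independent sequences: the best local alignment of Serpina3g with Serpina3i had 80.5% identical positions over 236 columns, and the Serpina3c and Serpina3n windows were 92.6% identical over 297. Serpina3c, the closest window to Serpina3n, held no κB-type match. A match is a description of letters, not a measured site.

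Levels are given as CPM, the usual depth-scaled read count, with TMM scaling of the libraries, and between genes as CPM per kb of exon. In control lung Serpinh1 stood at the top with 112 ± 11.8 CPM per kb (SD, n = 3). Serpinb9 (41.1 ± 2.55), Serpinb6b (40.3 ± 3.95) and Serpinb6a (29.0 ± 1.88) came next, and the first of these did not differ from its neighbour beyond their spread. Serpina3g, Serpinf1, Serpina3n and Serpine2 followed between 11.9 and 15.3 CPM per kb, with overlapping ranges. In asthma lung the order was Serpinh1 (200 ± 83.9), Serpina3n (117 ± 46.6), Serpina3g (45.2 ± 2.93) and Serpinb9 (42.3 ± 1.96), so that Serpina3n stood seventh in control and next after Serpinh1 in asthma. The ranges of Serpinh1 and Serpina3n overlapped in asthma, as did those of Serpina3g and Serpinb9. BSYQF lung had the same leading 4, with Serpinh1 at 110 ± 35.9, Serpina3n at 55.0 ± 19.3, Serpina3g at 44.9 ± 15.01 and Serpinb9 at 37.3 ± 2.65.

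Clade A made up 10.02 ± 0.472% of the member counts in control, 26.1 ± 1.97% in asthma and 24.1 ± 1.25% in BSYQF (SD, n = 3 each). Its summed level was 88.6 to 109 CPM in control, 328 to 530 CPM in asthma and 269 to 281 CPM in BSYQF, so both model groups lay above every control library. Clade B had a summed level of 422 to 440, 345 to 439 and 376 to 430 CPM in the same order, and the 3 groups overlapped. These shares are of raw counts and also carry gene length.

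**Figure D1:**
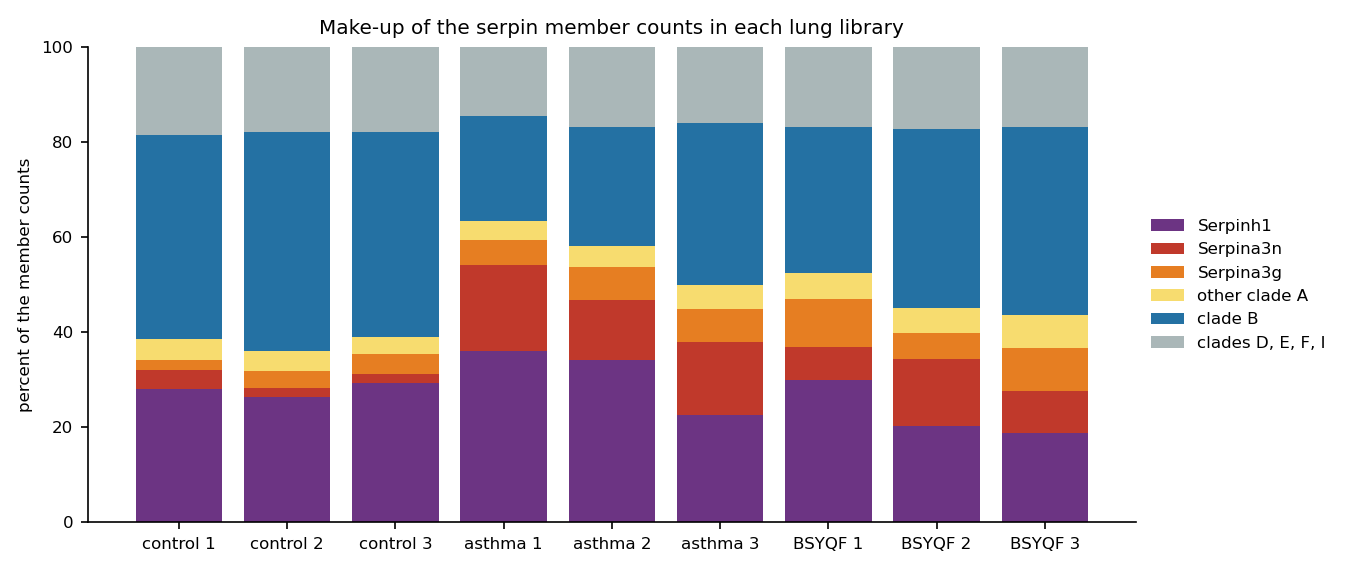
Stacked bars give each gene's or clade's percent of the summed member counts (vertical axis, 0 to 100) in each of the 9 libraries (horizontal axis). The red Serpina3n and orange Serpina3g segments are wider in all 6 asthma and BSYQF libraries than in the 3 controls, and clade A as a whole averages 10.02% in control against 26.1% in asthma.

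Asthma against control asks which serpins the model itself altered. A member was called where edgeR's quasi-likelihood test gave a Benjamini-Hochberg adjusted p under 0.05 over all 14739 genes tested, and all 28 members were tested. In asthma 5 members were called higher (17.9%) and none lower, while 12.7% of all genes tested were called in either direction, 8.23% higher and 4.45% lower. The 5 were Serpina3n, Serpina3g, Serpina3i, Serpina3m and Serpina10, all of clade A, and no member of clades B, D, E, F, H or I was called. Serpina3m reached the count threshold for membership only in asthma and BSYQF libraries, so its call was favoured by that rule and the share is not read as support. The 3 asthma libraries lay above all 3 controls for 10 members (35.7%, Serpina3m among them) and below them for none, while 40.4% of all genes did not overlap in either direction, 22% did not overlap with asthma higher and 18.4% with asthma lower. DESeq2 called 6 of the 28 members, beside 21.9% of all genes (3258 of 14909 with an adjusted p). An unadjusted edgeR p under 0.05 was found for 8 members and for 34.1% of all genes. The median log2 fold change was 0.29 over the members, 1.07 over clade A and 0.04 over clade B, against 0.02 over all genes tested. Within clade A it was 1.56 over the 7 Serpina3 members and -0.66 over the other 4, of which 3 lay below 0. The number of calls changed when 1 library was left out. Leaving out any 1 control library, or asthma replicate 1 or 2, left 1 to 3 members and 171 to 438 genes called. Leaving out asthma replicate 3 gave 7 members and 4262 of 14941 genes. The part of the smaller group size in these counts was not tested.

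BSYQF against asthma asks what the formula altered in asthmatic lung. No member was called by edgeR, which called 0.00678% of all genes (1 of 14739). Here too 8 members had an unadjusted p under 0.05, as did 7.94% of all genes, and DESeq2 called 1 member, Serpinb11, beside 0.706% of all genes (122 of 17271 with an adjusted p). Serpinb11 was a member only through the BSYQF libraries. Groups did not overlap for 5 members (17.9%), 2 higher (Serpinb11 among them) and 3 lower in BSYQF, beside 9.75% of all genes (4.99% higher and 4.76% lower). The members' median log2 fold change was 0.05. Against control, BSYQF lung had 2 members called higher, Serpina3n and Serpina3g (7.14%), beside 1.67% of all genes called in either direction, 1.63% higher and 0.0407% lower. Without control replicate 2 or 3 no member was called, nor more than 17 genes, and without control replicate 1 or BSYQF replicate 1 or 2 the call of 1 member was left. DESeq2 called 4 members and 5.06% of all genes. Unadjusted, 9 members and 15.8% of all genes had a p under 0.05. Without overlap, 9 members (32.1%) lay above all controls, beside 24.8% of all genes in either direction and 13% higher. These 9 include Serpina3m and Serpinb11, and nothing is read from the share. The members' median was 0.41. The 3 comparisons share libraries, so their values are set side by side only.

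**Figure D2:**
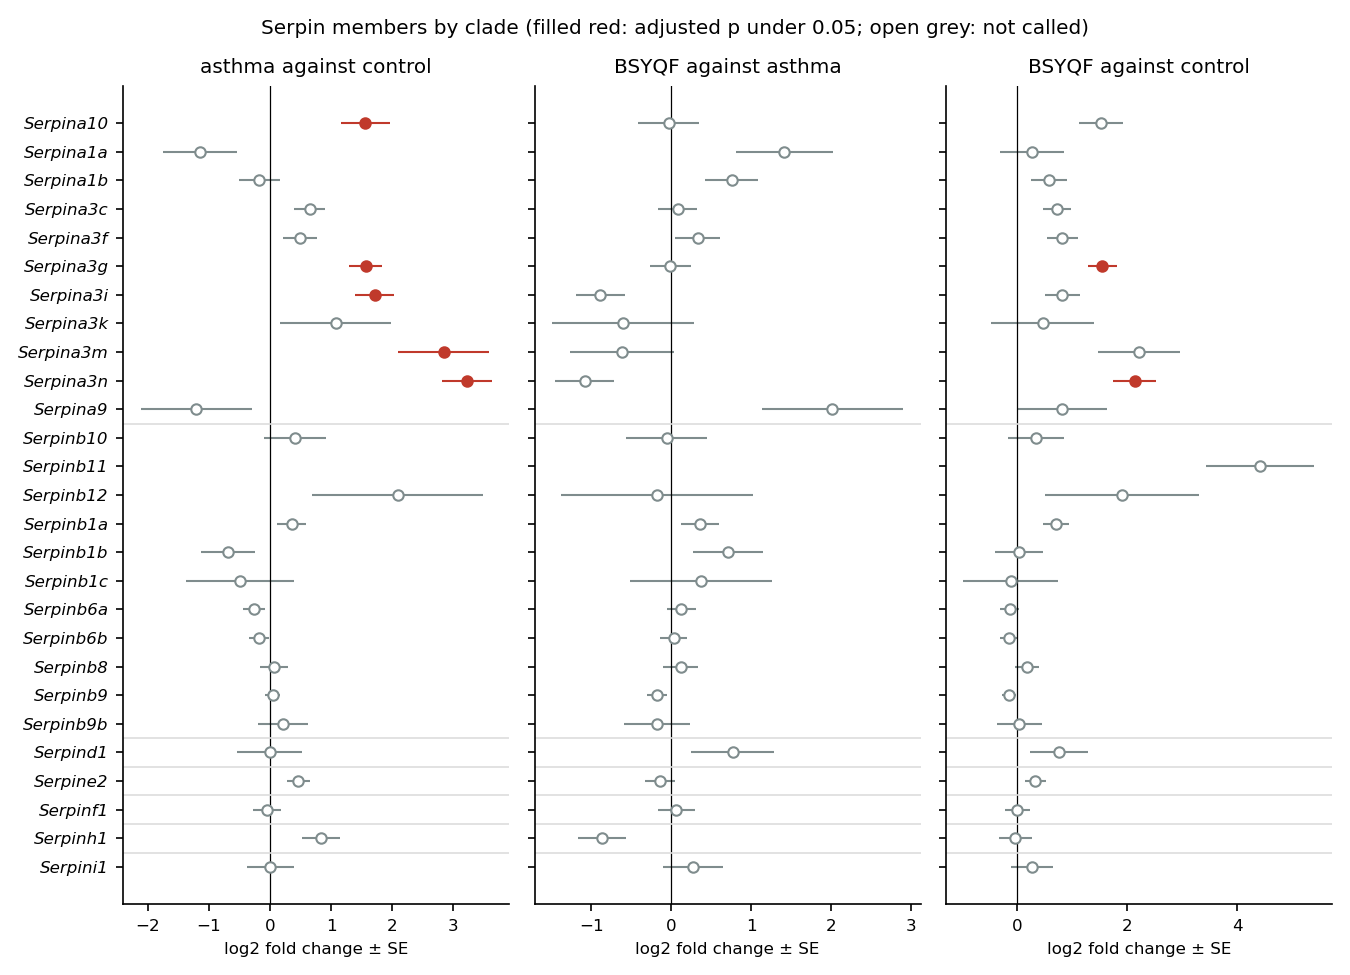
Each row is a reported member, ordered by clade, and each panel plots its log2 fold change ± SE from edgeR in one comparison (n = 3 libraries a group), with filled red points for adjusted p under 0.05. The 7 Serpina3 members all lie right of 0 in asthma against control and in BSYQF against control. Serpina3m, a member only through asthma and BSYQF libraries, is among them. Serpinb12 of clade B was also a member only through asthma and BSYQF libraries. Serpinb11 is left out of the panels that involve asthma, where all its counts were 0.

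Serpina3n, a secreted inhibitor of chymotrypsin-like proteases and of granzyme B and a known acute-phase gene, had the largest difference among the called members. It measured 40.7, 17.3 and 19.5 CPM in control libraries 1, 2 and 3, 351, 173 and 199 CPM in asthma, and 85.9, 159 and 95.6 CPM in BSYQF. Every asthma library was above every BSYQF library, and every BSYQF library was above every control. The asthma mean was 9.33 times the control mean (log2 fold change 3.22 ± 0.40 SE, edgeR adjusted p = 0.00420), and Serpina3n was called in all 9 fits that left out one library, with fold changes between 2.83 and 3.71. In BSYQF its mean was 4.40 times control (2.14 ± 0.39, adjusted p = 0.0264, called in 6 of 9 such fits). It lost the call without control replicate 2 (adjusted p = 0.110), without control replicate 3 (0.1335) and without BSYQF replicate 2 (0.0698). BSYQF against asthma gave -1.09 ± 0.37, with an unadjusted p = 0.0147 and an adjusted p = 0.579, so this difference did not pass the test.

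Serpina3g, an intracellular serpin known as spi2A that inhibits lysosomal cathepsins, measured 22.6, 32.6 and 41.3 CPM in control, 100.4, 96.9 and 88.4 CPM in asthma and 124, 61.1 and 98.7 CPM in BSYQF. Both model groups lay above control, and BSYQF spread on both sides of asthma. The log2 fold change was 1.56 ± 0.26 in asthma (adjusted p = 0.0100) and 1.55 ± 0.26 in BSYQF against control (adjusted p = 0.0195), and BSYQF against asthma was -0.01 ± 0.26. The asthma call was lost without asthma replicate 1 (adjusted p = 0.0510). The BSYQF call was lost without control replicate 1, 2 or 3 (adjusted p = 0.0699, 0.0909 and 0.0672) and without BSYQF replicate 1 (0.0549).

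Serpina3i measured 7.02, 9.59 and 6.28 CPM in control, 37.6, 17.0 and 20.3 CPM in asthma, and 11.4, 11.6 and 17.4 CPM in BSYQF. Asthma replicate 1 stood well above the others, and BSYQF replicate 3 was the only BSYQF library within the asthma range. It was 3.27 times control in asthma (log2 fold change 1.71 ± 0.32, adjusted p = 0.0124), and the call was lost without asthma replicate 1 (1.27, adjusted p = 0.0598) and without control replicate 1 or 3 (adjusted p = 0.0515 and 0.0524). BSYQF against asthma was -0.89 ± 0.31 with an unadjusted p = 0.0157 and an adjusted p = 0.579.

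Serpina3m rested on few reads: 6, 7 and 5 counts in control, so that it became a member only through the asthma and BSYQF libraries. Its level was 0.324, 0.410 and 0.266 CPM in control, 2.72, 1.88 and 2.64 CPM in asthma and 0.727, 3.49 and 0.520 CPM in BSYQF. The BSYQF libraries split, with replicate 2 above all asthma libraries and the other 2 below them. Because of that rule its difference from control supports nothing and is given as a description. The log2 fold change in asthma was 2.84 ± 0.74 (adjusted p = 0.0369), called in 4 of 9 fits that left out one library, and leaving out any control library or asthma replicate 1 or 2 gave adjusted p between 0.0917 and 0.116.

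**Figure D3:**
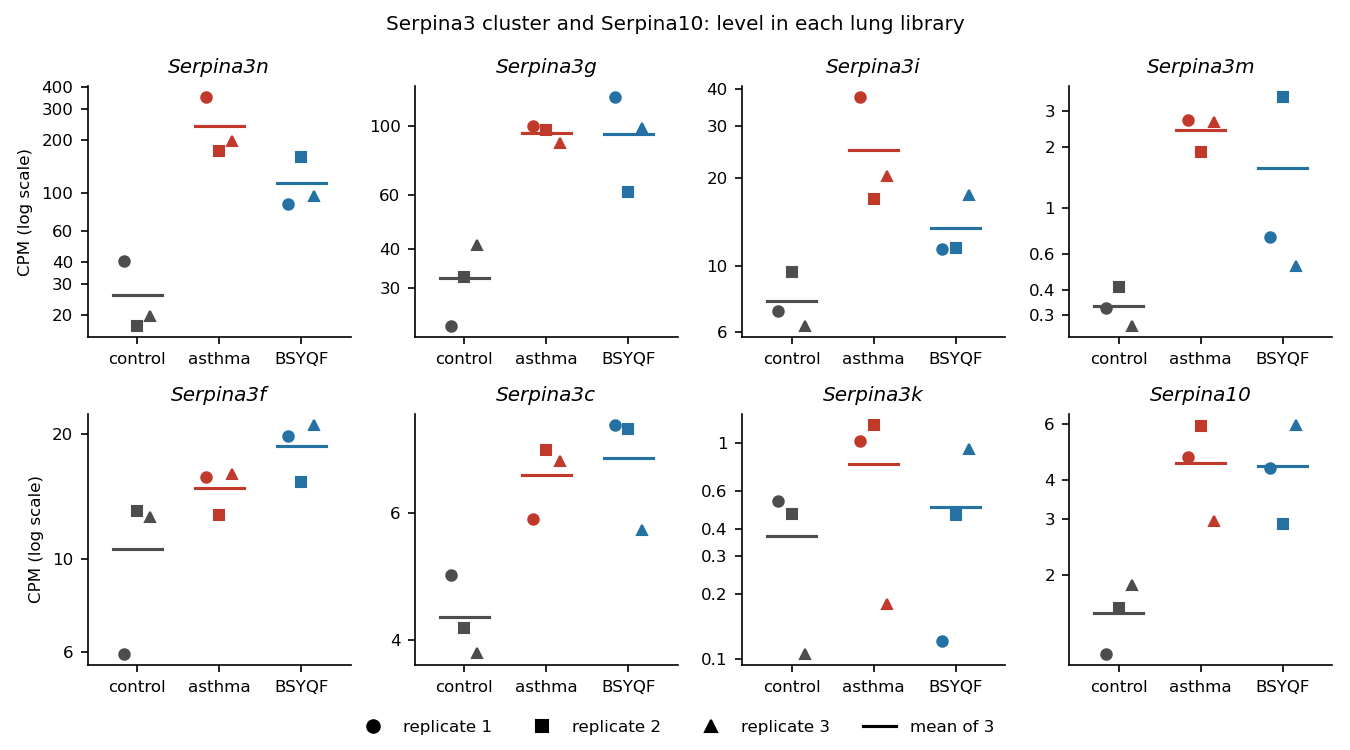
Points give CPM (vertical axis, log scale, a separate range in each panel) in each library of the 3 groups, with shapes for the replicate and a bar for the group mean. Serpina3n, Serpina3g, Serpina3i, Serpina3m, Serpina3c and Serpina10 have all 3 asthma libraries above all 3 controls, while Serpina3f and Serpina3k overlap.

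The other 3 Serpina3 members did not pass the test in any comparison. Serpina3f measured 5.94, 13.1 and 12.7 CPM in control, 15.8, 12.8 and 16.05 CPM in asthma, and 19.8, 15.3 and 21.0 CPM in BSYQF. Asthma overlapped control, and every BSYQF library lay above control. Serpina3c measured 4.92, 4.15 and 3.83 CPM in control, 5.89, 7.33 and 7.08 CPM in asthma and 7.93, 7.84 and 5.67 CPM in BSYQF, above control throughout, with a log2 fold change of 0.65 ± 0.25 in asthma (adjusted p = 0.0990). Serpina3k stayed between 0.106 and 1.21 CPM in all libraries. All 7 Serpina3 members had log2 fold changes above 0 in asthma (median 1.56, range 0.49 to 3.22) and against control in BSYQF (median 0.83). The 7 include Serpina3m, a member only through asthma and BSYQF libraries, and Serpina3k, whose counts are uncertain, so nothing is read from this count.

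Serpina10, the protein Z-dependent inhibitor that blocks activated coagulation factor X, measured 1.13, 1.58 and 1.86 CPM in control, 4.70, 5.92 and 2.96 CPM in asthma, and 4.36, 2.90 and 5.93 CPM in BSYQF. No library of either model group fell into the control range. The log2 fold change was 1.56 ± 0.40 in asthma (adjusted p = 0.0357) and 1.53 ± 0.40 in BSYQF against control (adjusted p = 0.0898 by edgeR, 0.0119 by DESeq2). The asthma call was lost without any 1 control library or without asthma replicate 1 or 2 (adjusted p between 0.0704 and 0.141).

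Serpina1a and Serpina1b encode antitrypsin, and their values are uncertain because of the shared sequence given above. Serpina1b measured 21.2, 7.31 and 9.84 CPM in control, 10.4, 11.2 and 12.4 CPM in asthma, and 21.6, 16.1 and 19.9 CPM in BSYQF. All BSYQF libraries were above all asthma libraries, while control spread over both (BSYQF against asthma 0.76 ± 0.33, unadjusted p = 0.0441, adjusted p = 0.622). Serpina1a measured 3.35, 1.52 and 1.22 CPM in control, 0.679, 0.538 and 1.48 CPM in asthma and 1.15, 2.61 and 3.59 CPM in BSYQF, with overlap in every comparison. Serpina9, a serpin of germinal-centre B cells, stayed between 0.0566 and 1.88 CPM.

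Liver makes most plasma antitrypsin, so hepatic and plasma transcripts were read beside these genes. Of 8 such genes 3 were abundant enough to test and none was called, their summed level was 1.29 to 3.19 CPM in control, 1.01 to 2.77 in asthma and 2.61 to 3.33 in BSYQF, Fgb had no count in any library, and Ttr had at most 2. Neutrophil elastase (Elane) and cathepsin G (Ctsg), the proteases best known as targets of the clade A inhibitors, had at most 24 and 25 counts. Among 13 tested granule serine proteases 3 rose in asthma and none fell: the mast cell proteases Mcpt1 (8.61 ± 1.82), Mcpt2 (5.84 ± 1.26) and Tpsab1 (3.60 ± 1.0), with edgeR adjusted p = 0.0249, 0.0245 and 0.0444. The list's median log2 fold change was 0.69, and none of the 3 was called without any 1 control library or without asthma replicate 1 or 2.

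Acute-phase genes, a class to which Serpina3n is known to belong, were read from a list of 16. Of 15 tested, 13 rose in asthma and none fell (median log2 fold change 2.78), and 7 were called higher in BSYQF against control (median 1.60). The asthma count was 7 without control replicate 2 and 8 without asthma replicate 1 or 2, and the BSYQF count was 2 without control replicate 1 or BSYQF replicate 1 or 2 and 0 without control replicate 2 or 3. Lcn2, an iron-sequestering secreted protein, had a log2 fold change of 4.0 ± 0.41, and Lrg1, a leucine-rich secreted glycoprotein, 2.85 ± 0.31, both with an edgeR adjusted p = 0.00238. For the copper carrier Cp and the serum amyloid Saa1 the values were 1.65 ± 0.19 (adjusted p = 0.00304) and 7.14 ± 0.93 (0.00420). By edgeR none was called in BSYQF against asthma (DESeq2 called 6 lower, and edgeR 3 lower without asthma replicate 3), where all 15 log2 fold changes were below 0 (median -1.08) and 11 had an unadjusted p under 0.05. Over all genes tested 7476 of 14739 lay below 0 in BSYQF against asthma, and 7.94% had an unadjusted edgeR p under 0.05. Serpina3n had 3.22 in asthma against control and -1.09 in BSYQF against asthma. Both comparisons use the same asthma libraries, so the opposite signs are given as a description.

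**Figure D4:**
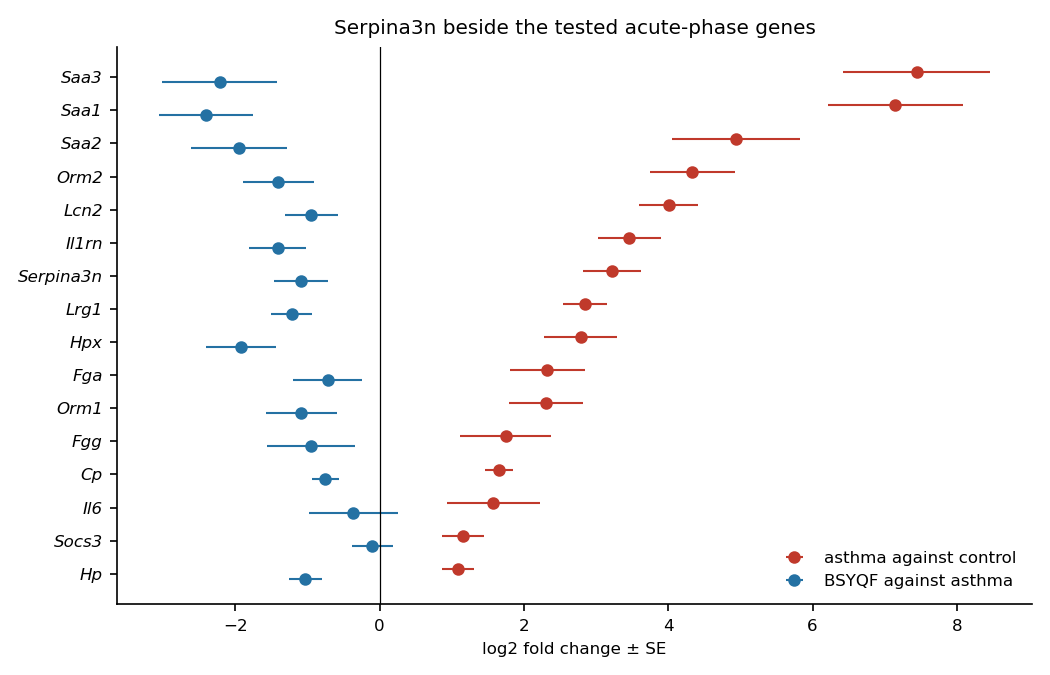
Log2 fold change ± SE (horizontal axis, n = 3 libraries a group) is plotted for Serpina3n and the 15 tested acute-phase genes (rows), in red for asthma against control and in blue for BSYQF against asthma. All red points lie above 0 and all blue points below 0, and Serpina3n sits within both ranges. Both comparisons use the same asthma libraries, so their signs are not independent.

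In the edgeR fit used for the calls above no clade B serpin was called in any comparison, while other fits called Serpinb11. Serpinb9, the granzyme B inhibitor that protects cytotoxic and antigen-presenting cells, measured 133, 148 and 149.7 CPM in control, 155, 141 and 148 CPM in asthma, and 120.4, 139 and 132 CPM in BSYQF. BSYQF was below asthma without overlap, by a log2 fold change of -0.18 ± 0.13 (adjusted p = 0.658), and asthma overlapped control (0.04 ± 0.13). Serpinb6a, a cytosolic inhibitor of cathepsin G, measured 168, 151.8 and 149.8 CPM in control, 138, 95.7 and 159 CPM in asthma and 127, 151 and 149.6 CPM in BSYQF. Serpinb6b, a related copy, measured 100.9, 83.4 and 88.8 CPM in control, 88.0, 60.6 and 93.0 CPM in asthma, and 79.2, 87.8 and 80.4 CPM in BSYQF. In both genes asthma replicate 2 was the lowest library and the groups overlapped.

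Serpinb1a, an inhibitor of neutrophil elastase, cathepsin G and proteinase 3, measured 20.0, 18.6 and 20.0 CPM in control, 26.4, 27.8 and 20.7 CPM in asthma, and 26.6, 23.4 and 45.9 CPM in BSYQF. Both model groups lay above control, with BSYQF replicate 3 far above the rest. Neutrophil markers were also highest in BSYQF replicate 3, at a summed level of 2754 CPM, against 308 to 854 CPM in control, 526 to 783 CPM in asthma and 360 and 1162 CPM in BSYQF replicates 1 and 2. Their part in the Serpinb1a values was not tested. Neither difference passed the test (0.35 ± 0.24, adjusted p = 0.322, and 0.71 ± 0.24, adjusted p = 0.187). Of its near copies, Serpinb1b stayed between 1.21 and 4.36 CPM and Serpinb1c between 0.0448 and 0.692 CPM. Serpinb8 ranged from 8.74 to 13.3 CPM, Serpinb9b from 1.73 to 4.62 CPM, Serpinb10 from 1.52 to 5.41 CPM and Serpinb12 from 0 to 1.30 CPM, and none was called. Serpinb12 had 1, 3 and 3 counts in control and was a member only through asthma and BSYQF libraries. Its difference from control therefore supports nothing.

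Serpinb11 had 1, 0 and 2 counts in control, 0 in each asthma library, and 15, 14 and 42 counts (0.908, 0.813 and 2.19 CPM) in BSYQF. It became a member only through the 3 BSYQF libraries, so a difference was fixed by the rule and supports nothing. Against the 3-count floor per library, BSYQF was at least 7.72-fold higher than asthma. By edgeR the adjusted p was 0.229 against asthma and 0.0664 against control, and by DESeq2 it was 0.00177 and 0.0109. Against control edgeR called it with the newer dispersion method (adjusted p = 0.0345), in a fit of the 2 groups alone (0.0370) and without asthma replicate 3 (0.0410). In the authors' deposited table it had an adjusted p of 0.00196 against asthma. Basal and squamous epithelial markers were also higher in BSYQF than in asthma, at a summed level of 9.59 to 22.2 against 3.05 to 3.91 CPM. In control their level was 7.78 to 10.96 CPM and overlapped BSYQF, whereas Serpinb11 was near 0 in control. Of the 4 of 9 that could be tested 2 fell in asthma, and none was called in BSYQF against control. Against asthma 1 rose in BSYQF (2 without asthma replicate 3, 1 without BSYQF replicate 2 and none without any other single library). Sprr3 and Dsg3 of that list had no count in any library. Their part in the Serpinb11 counts was not tested.

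Lysosomal cysteine proteases and caspases, which clade B serpins and Serpina3g meet inside cells, were read from a list of 11. Of these 6 rose in asthma and none fell (median log2 fold change 1.0), with Casp4 at 1.0 ± 0.16, Ctsb at 1.67 ± 0.33, Ctsz at 1.75 ± 0.38 and Ctsk at 3.59 ± 0.75 (edgeR adjusted p between 0.00954 and 0.0224). Casp4 and Ctss were also called in BSYQF against control, and none was called in BSYQF against asthma. Without any 1 control library or asthma replicate 1 or 2 the asthma count was 1 or 2, and it was 9 without asthma replicate 3. In BSYQF against control it was 0 without any 1 control library. Macrophage markers moved the same way: 7 of 10 rose in asthma (4 without control replicate 2), and their summed level was 318 to 433 CPM in control, 974 to 1081 in asthma and 680 to 1128 in BSYQF. Of 8 B and plasma cell markers 3 rose in asthma and again in BSYQF against control, and none was called between BSYQF and asthma. Among them were Jchain (4.64 ± 0.53 in asthma), which joins antibody units, and the plasma cell chaperone Mzb1 (3.90 ± 0.49), with edgeR adjusted p = 0.00293 and 0.00435. The summed level of the 8 was 590 to 659 CPM in control, 3235 to 4528 in asthma and 4315 to 4625 in BSYQF. The part of these cells in the Serpina3 and cathepsin values was not tested, and in bulk lung a change in the number of cells of a type and a change in RNA per cell cannot be told apart.

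Serpine2 (protease nexin), a clade E inhibitor of thrombin and of plasminogen activators, measured 105.1, 89.8 and 100.4 CPM in control, 155, 140.0 and 113 CPM in asthma, and 161, 104 and 106 CPM in BSYQF. Asthma lay above control without overlap (0.47 ± 0.19, adjusted p = 0.112), and the difference passed the test without asthma replicate 3 (0.57, adjusted p = 0.0477).

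The plasminogen system, which Serpine2 and Serpini1 act on, had 13 tested genes, of which 5 rose and 2 fell in asthma (median 0.54). Among them St14 (matriptase), a membrane serine protease, had a log2 fold change of 0.70 ± 0.17, the plasminogen co-receptor Anxa2 0.85 ± 0.22, and the lipoprotein receptors Lrp8 and Vldlr, which can take up serpin complexes, 1.94 ± 0.47 and -1.46 ± 0.35 (edgeR adjusted p between 0.0286 and 0.0349). Plau (urokinase), a plasminogen activator, had 0.54 ± 0.20 in asthma (adjusted p = 0.0929) and -0.56 ± 0.21 in BSYQF against asthma (adjusted p = 0.587). None of the 13 was called between BSYQF and asthma (median -0.17), and none in asthma against control without any 1 control library or asthma replicate 1 or 2.

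Coagulation genes, which Serpina10, Serpind1 and Serpine2 bear on, had 2 of 20 higher and 1 lower in asthma (median 0.14). The clotting proteases F7 (2.34 ± 0.49) and F10 (3.05 ± 0.70) rose, and thrombomodulin (Thbd), the endothelial thrombin receptor, fell by 1.01 on the log2 scale (edgeR adjusted p = 0.0210, 0.0304 and 0.0254). Endothelium markers were lower beside it: their summed level was 4001 to 5593 CPM in control, 2592 to 4391 in asthma and 3774 to 3935 in BSYQF, and in asthma 7 of 8 had a log2 fold change below 0 (median -0.43), with 1 called (5 without asthma replicate 3). Their part in the Thbd value was not tested. Of 12 genes often read as TGF-beta responsive, Tgfbi (1.90 ± 0.30) and Thbs1 (1.47 ± 0.37) rose and the inhibitory Smad7 (-0.77 ± 0.19) fell, with adjusted p = 0.00873, 0.0324 and 0.0327, and the median was -0.12. No coagulation gene was called, and 1 TGF-beta responsive gene, when any 1 control library or asthma replicate 1 or 2 was left out. Tgfbi, an extracellular matrix protein, had -1.28 ± 0.29 in BSYQF against asthma (unadjusted p = 0.00109, adjusted p = 0.293).

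Serpinh1 (HSP47), the collagen chaperone of the endoplasmic reticulum, measured 289, 240.0 and 291 CPM in control, 701, 471 and 292 CPM in asthma, and 368, 231 and 204 CPM in BSYQF. Asthma replicates 1 and 2 were far above control, and asthma replicate 3 was level with the highest control library. The difference of 0.84 ± 0.30 had an adjusted p = 0.0848 by edgeR and 0.0378 by DESeq2, and without asthma replicate 3 it was 1.09 with an adjusted p = 0.0114. BSYQF against asthma was -0.87 ± 0.30 (unadjusted p = 0.0155, adjusted p = 0.579), with BSYQF replicate 1 inside the asthma range.

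Collagen genes and collagen-folding enzymes that work with Serpinh1 had 24 tested members, of which 4 rose in asthma and none fell (median 0.23). They were the endoplasmic reticulum chaperone Hspa5 (1.25 ± 0.25), the prolyl hydroxylase subunit P4hb (0.86 ± 0.20), the prolyl isomerase Fkbp10 (0.78 ± 0.21) and the fibrillar collagen Col3a1 (0.90 ± 0.25), with edgeR adjusted p = 0.0162, 0.0260, 0.0400 and 0.0415. All 4 lost the call without any 1 control library or asthma replicate 1 or 2, 2 were called without BSYQF replicate 2, and the median was 0.09 without asthma replicate 1. None was called in BSYQF against asthma, where 22 of 24 log2 fold changes were below 0 (median -0.35) and 7 had an unadjusted p under 0.05. That median was -0.15 without asthma replicate 1 and -0.52 without BSYQF replicate 2. Of all genes tested 7476 of 14739 lay below 0 in BSYQF against asthma, and 7.94% had an unadjusted edgeR p under 0.05. Of 10 fibroblast and mesothelium markers none rose and 1 fell in asthma (6 fell by DESeq2 and without asthma replicate 3 or BSYQF replicate 1). Their median log2 fold change in asthma was -1.14, 8 lay below 0, and 9 had an unadjusted edgeR p under 0.05. Their summed level was 2157 to 2598 CPM in control, 1229 to 1880 in asthma and 1724 to 1986 in BSYQF.

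**Figure D5:**
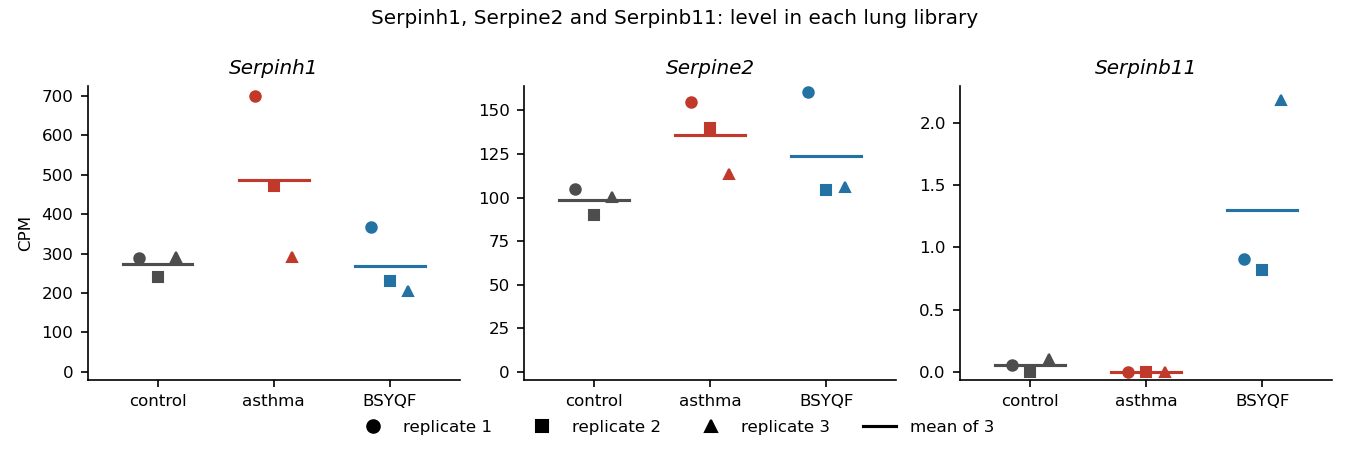
Points give CPM (vertical axis, linear) in each library of the 3 groups for 3 members outside clade A, with shapes for the replicate and a bar for the group mean. Serpinh1 has its highest value in asthma replicate 1 (701 CPM), and Serpinb11 is at 0 in all asthma libraries.

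None of the remaining 3 members was called. Serpinf1 (pigment epithelium-derived factor), an anti-angiogenic serpin with no protease target, measured 35.2, 25.6 and 30.9 CPM in control, 22.98, 29.8 and 35.5 CPM in asthma, and 21.5, 34.6 and 36.0 CPM in BSYQF. Serpind1 (heparin cofactor II), a thrombin inhibitor, measured 1.24, 1.76 and 1.06 CPM in control, 0.566, 2.02 and 1.48 CPM in asthma and 2.36, 1.57 and 2.97 CPM in BSYQF. Serpini1 (neuroserpin), an inhibitor of tissue plasminogen activator, measured 4.16, 3.51 and 3.30 CPM in control, 2.38, 5.11 and 3.59 CPM in asthma, and 5.51, 2.61 and 5.20 CPM in BSYQF. The groups overlapped for all 3 in each comparison.

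Protease inhibitors that are not serpins included Slpi, whose asthma-control difference was larger than that of Serpina3n. Of 11 tested, 4 rose and 1 fell in asthma (median 0.71). Slpi, the secretory leukocyte protease inhibitor of the airways and an elastase inhibitor like antitrypsin, measured 37.9, 33.3 and 28.5 CPM in control, 1635, 2207 and 509 CPM in asthma, and 1146, 753 and 602 CPM in BSYQF. Its log2 fold change was 5.45 ± 0.51 in asthma (edgeR adjusted p = 0.00238) and 4.65 ± 0.50 in BSYQF against control (adjusted p = 0.00506). The others were the inter-alpha-inhibitor heavy chain Itih4 (1.93 ± 0.28), Wfdc17 (2.52 ± 0.44) and the cathepsin inhibitor Cstb (1.98 ± 0.38) higher, with adjusted p between 0.00715 and 0.0140, and the membrane-anchored metalloprotease inhibitor Reck lower (-1.27 ± 0.32, adjusted p = 0.0347). Without control replicate 2 or asthma replicate 1, 2 of these inhibitors were called, both higher.

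Library totals ran from 16286385 to 22819199 counts, and 3 counts corresponded to 0.134 to 0.202 CPM, so members under about 1 CPM rest on few reads. On the first principal component of all genes (51.6% of the variance), asthma replicate 3 (1.77) and BSYQF replicate 1 (40.5) stood apart from their groups. Lung identity markers were present in every library (Sftpc, Scgb1a1 and Ager summed to 39208 CPM or more). Fat and cardiac muscle markers also differed with the groups: 5 of 7 and 7 of 8 fell in asthma (1 and 0 without asthma replicate 1), with summed levels of 118 to 571, 19.7 to 40.3 and 118 to 484 CPM for fat and 435 to 988, 124 to 229 and 435 to 1361 CPM for cardiac muscle in control, asthma and BSYQF. Their part in the serpin values was not tested. No neutrophil, cytotoxic lymphocyte or erythroid marker was called by edgeR over all libraries, while DESeq2 called 3 neutrophil markers higher in BSYQF against control.

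The authors' deposited table for asthma against control, in which every log2 fold change exceeded 1 in one direction or the other, held the same 5 members that were called here, at 3.20 for Serpina3n, 1.54 for Serpina3g, 1.69 for Serpina3i, 2.84 for Serpina3m and 1.54 for Serpina10. For BSYQF against asthma the authors' deposited table listed 4 members, among them Serpinb11, Serpina3n (-1.08) and Serpina1a (1.44), and of the 4 only Serpinb11 had an adjusted p under 0.05 there. For BSYQF against control the authors' deposited table listed 5 members, of which Serpina3n, Serpina3g, Serpinb11 and Serpina10 had an adjusted p under 0.05 there (0.00246 for Serpinb11 and 0.0104 for Serpina10) and Serpina3m did not. Serpinb11 and Serpina10 were not called in that comparison by the edgeR fit used for the calls here. These tables compare the same libraries.

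Of the 33 serpin rows under the threshold, 14 had no count in any library and 19 had some. Just outside it were Serpina1c, Serpina1e, Serpinb2 and Serpinb5, with 10 or more counts in 2 libraries and at most 17, 12, 14 and 17 counts. Just inside were Serpinb1c, Serpinb12 and Serpinb11, with 10 or more counts in exactly 3 libraries. Serpinb2 is often used as a mark of type 2 airway epithelium. It had 12, 6 and 6 counts in control, 5, 4 and 6 in asthma and 2, 0 and 14 in BSYQF. These counts are too few in every group to compare. Of 12 other genes of such epithelium 8 rose in asthma, among them Slc26a4 (4.92 ± 0.77), Agr2 (3.85 ± 0.69), Clca1 (9.88 ± 1.88) and Muc5ac (4.07 ± 0.87), with edgeR adjusted p between 0.0100 and 0.0243. This count was 0 without control replicate 2 and 1 without control replicate 1 or 3 or asthma replicate 1 or 2.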

How the data were processed

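Lung RNA of 9 BALB/c libraries was sequenced from NEBNext Ultra libraries, per the labels' protocols. Tools named in the submitters' processing notes are STAR, HTSeq, DESeq2, cutadapt and FastQC, with build mm10. What is not given in the sources used here is their versions, the annotation, the read layout and the strand setting. Raw counts per gene and library, deposited by the authors, were the input of every test. The authors' deposited comparison tables hold, per the file headers, a log2 fold change, a p-value and an adjusted p-value per gene. These were used only where named, and 36 further columns of values per library in them were not used.

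Libraries were grouped by their labels. Counts were filtered with filterByExpr, scaled by TMM and fitted over all 9 libraries with edgeR 4.0.16 (quasi-likelihood F-test, R 4.3.3), with p-values adjusted by Benjamini-Hochberg over 14739 genes. The fit was also run on counts simulated from its own estimates of spread, which does not show how well it suits these libraries. Standard errors are the absolute log2 fold change over the square root of F. Alternatives were DESeq2 1.42.0, other scalings, no filter, the newer dispersion method, fits of 2 groups, a replicate block, and leaving out each library. Gene positions and exon lengths came from GENCODE vM21, which matched all 28 members, and promoters from RefSeq. Aligned windows used Biopython 1.88.

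Named with values were every member called, the 3 highest of each clade and a set of known serpins; other members were given by range. The values of 1 member and of 1 listed gene are not reported here, though both stay in the counts, sums and medians. Of each pathway list up to 4 genes with the smallest p-values were named. The members, lists and tests were chosen with earlier results of these data known.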

Additional observations from a re-analysis of the deposited data

How the results depend on the processing

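No log2 fold change of a member that was called changed sign under any alternative run. With DESeq2 in place of edgeR, 3258 genes were called for asthma against control (edgeR 1869), or 21.9% of those with an adjusted p. The numbers were 122 for BSYQF against asthma (edgeR 1), or 0.706%, and 806 for BSYQF against control (edgeR 246), or 5.06%. Of the 28 members 6, 1 and 4 were called in place of 5, 0 and 2. A fit of only the 2 groups compared called 0 genes in BSYQF against asthma and 389 in BSYQF against control. Leaving out each library in turn gave 171 to 4262, 0 to 114 and 9 to 563 genes in the 3 comparisons, and 1 to 7, 0 to 0 and 0 to 3 members. The fewest members in asthma against control (1, Serpina3n) came without asthma replicate 1. The most (7 of 28, beside 4262 of 14941 genes tested) came without asthma replicate 3. In leave-one-out fits that reduce a group to 2 libraries the spread is pooled over all groups. The causes were not tested. All 7 Serpina3 log2 fold changes stayed above 0 in asthma against control under each scaling and each left-out library, and in BSYQF against control in all of these but the fit without BSYQF replicate 3 (6 of 7). Serpina3m, a member only through asthma and BSYQF libraries, is among the 7, so this count is given as a description. In BSYQF against asthma 13 to 15 of the 15 acute-phase genes and 20 to 23 of the 24 collagen genes stayed below 0 in the same fits.

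The labels do not state that replicate numbers pair the libraries. Of 9 same-number pairs 2 had a correlation above 0.1 (range -0.26 to 0.34). For 3 of 9 libraries the closest library of another group had the same number. With so few libraries these values cannot exclude a pairing. With a replicate block, 4 members were called in asthma against control, Serpina10 having an adjusted p = 0.0527, and 15 genes in BSYQF against asthma. With total-count scaling, 884 genes were higher and 689 lower in asthma, against 1213 and 656. Depth limits the members near or under 1 CPM. Groups of 3 libraries were too small for an outlier rule. A threshold of 10 counts in 1 library would give 36 members and 20 counts in 3 libraries 23.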
